A study of Mus musculus with 12 samples.

Results

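The endothelial and sinusoidal vessel genes are 39 genes that mark the cells lining blood vessels, here measured in mouse femur. They were found by symbol in the deposited tables. All 39 were present in both tables, of 18335 gene symbols that the tables share. They fall into 13 junction and surface genes, 4 transcription factors, 12 receptors and signalling genes, 2 genes of vessel permeability and lipid handling, 3 scavenger receptors of sinusoids and 5 genes of haemostasis and leukocyte adhesion.

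The series sequenced messenger RNA from 2 pieces of the femur of 5-week-old male mice of mixed background. The diaphysis is the shaft and the metaphysis is the flared end beside the growth plate. Wild-type mice (Dlx3+/+, WT) were compared with conditional knockouts of Dlx3 (Dlx3Oc-cKO, cKO below), with 3 libraries in each of the 4 groups of region and genotype, 12 in all. Dlx3 encodes a homeobox transcription factor of bone-forming cells. The "Oc" is known from the study to stand for the osteocalcin promoter, which drives Cre in mature osteoblasts and osteocytes. Endothelium is thus not the intended target, but bulk RNA does not show in which cells Dlx3 was deleted. The labels leave unsaid whether the wild-type mice carried the Cre transgene. Sample titles open with 12 different numbers, which could be animal numbers, but the labels do not spell out that each library had its own mouse. The p-values therefore reflect only how these libraries scatter, and some of that scatter may be technical.

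Bone is supplied by arterioles that feed capillaries and wide, leaky sinusoids in the marrow. Endothelial cells join to each other through Cdh5 (VE-cadherin) and Pecam1, take their identity from ETS factors such as Erg and from the SoxF factors Sox7, Sox17 and Sox18, and respond to ligands through receptors such as Tie1 and Aplnr. In young bone, capillaries near the growth plate with high Emcn and Pecam1 grow together with bone-forming cells. Sinusoids of the marrow are rich in the scavenger receptors Stab1 and Stab2. Vwf and Selp, which act in haemostasis and adhesion, are also made by megakaryocytes and carried by platelets.

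Promoter sequence was available for 19 of the 39 genes, as 24 promoters of 300 bases in RefSeq on build GRCm38.p6, each running from 250 bases before the transcription start to 50 after it. The 20 genes without an entry were Aplnr, Arhgef15, Cdh5, Ecscr, Esam, Gpihbp1, Icam2, Lyve1, Mmrn2, Nos3, Pecam1, Plvap, Ptprb, Ramp2, S1pr1, Sox17, Sox18, Sox7, Thbd and Vwf. Of the genes called higher in cKO metaphysis below, the table held Emcn and Tie1. They are printed with Calcrl, whose level was close in both genotypes, and Selp, which lay lower in every cKO metaphysis library, so that the sequences can be read beside the values. The 250 bases before the start are given 5′ to 3′ on the strand of the gene. Capitals mark ACAGGAA (or its reverse complement TTCCTGT), a core of ETS factor sites, and AACAAT, a core of SOX factor sites.
Emcn, chr3:137340828-137341077, plus strand: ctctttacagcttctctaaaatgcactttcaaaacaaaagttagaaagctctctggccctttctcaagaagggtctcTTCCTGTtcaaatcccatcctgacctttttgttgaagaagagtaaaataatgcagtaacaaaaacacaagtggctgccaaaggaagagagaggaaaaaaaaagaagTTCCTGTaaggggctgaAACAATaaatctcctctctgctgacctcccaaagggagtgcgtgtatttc
Tie1, chr4:118489850-118490099, minus strand: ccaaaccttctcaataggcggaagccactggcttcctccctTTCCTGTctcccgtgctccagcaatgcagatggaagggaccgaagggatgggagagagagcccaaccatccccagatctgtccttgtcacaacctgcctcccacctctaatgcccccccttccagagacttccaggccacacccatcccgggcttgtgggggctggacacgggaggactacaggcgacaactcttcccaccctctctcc
Calcrl, chr2:84425267-84425516, minus strand: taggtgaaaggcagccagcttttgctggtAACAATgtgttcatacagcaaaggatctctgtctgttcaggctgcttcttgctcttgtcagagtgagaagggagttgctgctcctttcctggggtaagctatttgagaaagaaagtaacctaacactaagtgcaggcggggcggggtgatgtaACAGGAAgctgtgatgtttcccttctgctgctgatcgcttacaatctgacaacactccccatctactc
Selp, chr1:164115014-164115263, plus strand: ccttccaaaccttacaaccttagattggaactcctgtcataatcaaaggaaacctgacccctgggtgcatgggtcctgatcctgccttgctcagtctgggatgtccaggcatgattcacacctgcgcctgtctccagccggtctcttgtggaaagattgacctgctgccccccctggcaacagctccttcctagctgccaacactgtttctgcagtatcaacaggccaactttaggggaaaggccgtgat
In the Emcn sequence, TTCCTGT began at -173 and -67 and AACAAT at -50, counted from the start. In that of Tie1, TTCCTGT began at -209. In that of Calcrl, AACAAT began at -221 and ACAGGAA at -68. The Selp stretch held none of the letters searched. Over both strands of the 300 bases, ACAGGAA was found in 9 of the 24 promoters (37.5%), which belong to 8 of the 19 genes, and in 8.67% of all 32851 promoters in the table. The ETS core CCGGAAG was found in 0 of the 24 and in 8.86% of all promoters. AACAAT was found in 3 of the 24 (12.5%) against 10.7% of all, and TATAAA, the letters of a TATA box, in 3 of the 24 (12.5%) against 13.6%. None of the motifs contains another, and no matches overlap in the sequences printed. Several of the 24 promoters belong to the same gene, and a match is a run of letters in this window.

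Depth, worked out from the spacing of the lowest values, was, in M reads (M for mega), 24.7 to 34.8 across metaphysis libraries and 18.7 to 54.2 across those of the diaphysis. Values are RPKM, a read number corrected for the length of the transcript and the size of the library. For 10 reads and a length of 2 kb, the value is 0.267 RPKM at the lowest depth and 0.0923 RPKM at the highest. Dlx3, on chr11:94981403-94986610 of mm9, checks the genotype labels. Its mean fell from 9.11 ± 0.864 in WT metaphysis to 2.67 ± 0.640 RPKM in cKO metaphysis (SD, n = 3 each). In the diaphysis the means were 7.97 ± 4.93 and 1.16 ± 0.393 RPKM (n = 3 each), with no overlap of the genotypes in either region. The exact 2-sided permutation p was 0.1 in each region, the smallest that 3 libraries against 3 can give. By limma with Benjamini-Hochberg adjustment over all genes tested, the adjusted p of Dlx3 was 0.00907 in the metaphysis and 1.00 in the diaphysis. WT replicate 1 of the diaphysis stood apart from the other libraries, and results that rest on it are given with and without it.

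In the cKO metaphysis, 11 of the 38 vessel genes tested rose and 0 fell. A gene was tested where it reached 1 RPKM in at least 3 of the 6 libraries of the region, which left out Sele. The genes that rose were Emcn, Plvap, Sox18, Aplnr, Sox7, Arhgef15, Cdh5, Nos3, Mmrn2, Tie1 and S1pr1, by 0.39 to 0.95 on the log2(RPKM + 0.1) scale, a scale that understates the change of low genes. The 11 are 28.9% of those tested. Across all 12641 genes tested, 7.51% were called higher and 3.89% lower in cKO. The estimate was above 0 for 33 of the 38 and below 0 for 5, with a median log2 fold change of 0.41 over the vessel genes and -0.04 over all genes tested. All 3 cKO libraries lay above all 3 WT libraries for 23 of the 38 genes (60.5%), against 18.7% of all genes tested, and below them for 2 (Vwf and Selp), against 18.4%. At an unadjusted p under 0.05 by limma, 25 of the 38 passed, as did 3862 of all 12641 genes tested. The summed RPKM of the 39 genes was 354 to 369.8 in the WT and 464 to 487 in the cKO metaphysis libraries.

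The number of calls varied with the libraries in the fit. It was 2 (Emcn and Plvap) without cKO replicate 3, where 0.687% of all genes were called higher, 3 without WT replicate 1 (1.34%) or without WT replicate 2 (1.71%) and 5 without WT replicate 3 (4.63%). It was 8 without cKO replicate 2 (5.47%), 10 without cKO replicate 1 (6.21%) and 0 where all 12 libraries of both regions shared 1 estimate of the spread (0.0406%). In bulk RNA of this kind, a different number of endothelial cells and a different amount of RNA per cell cannot be told apart.

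**Figure D1:**
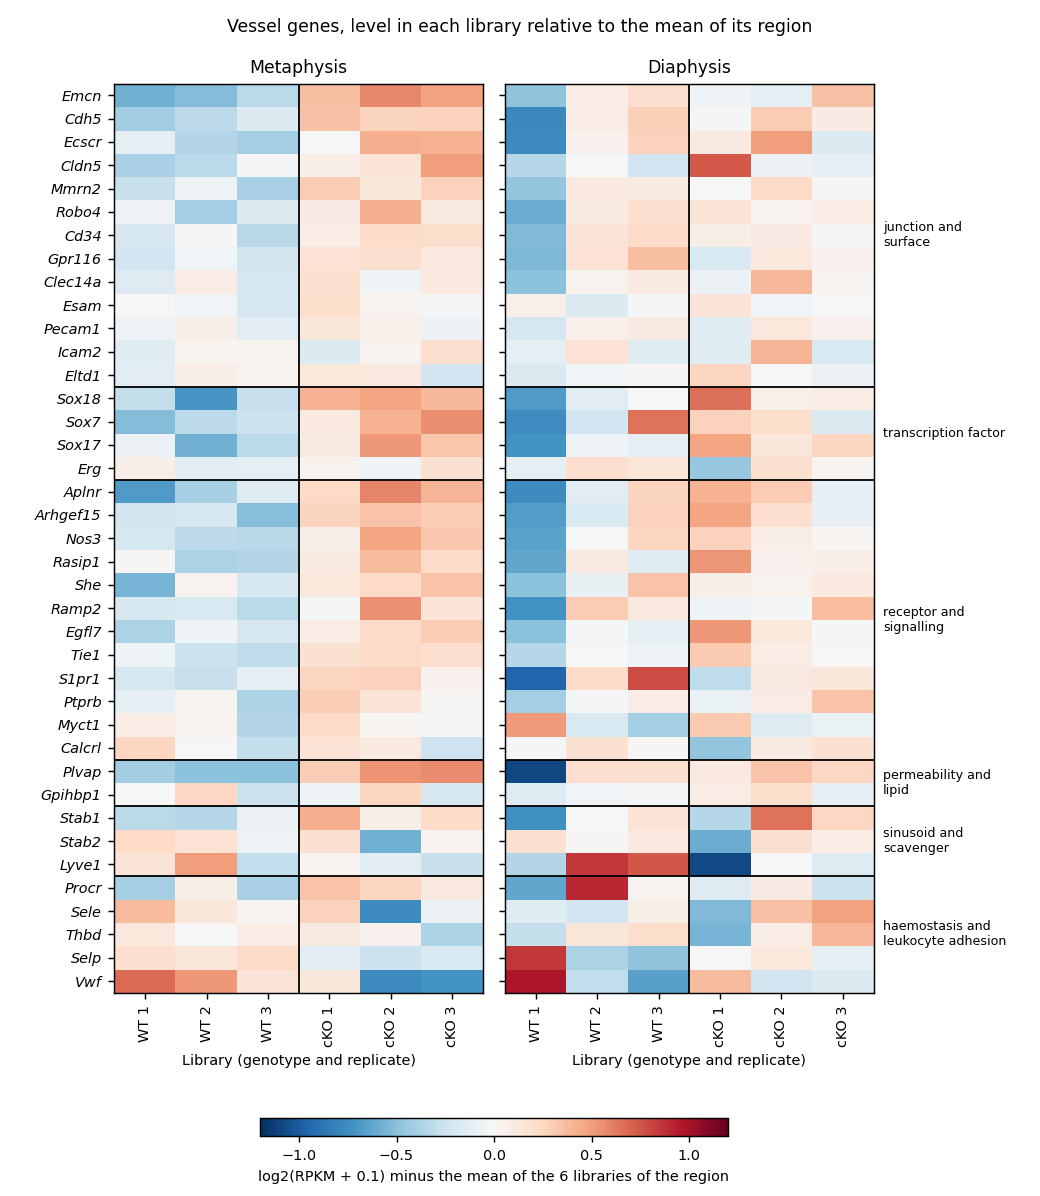
Level of each of the 39 vessel genes (rows, grouped by role) in each library (columns), as log2(RPKM + 0.1) minus the mean of the 6 libraries of its region. In the metaphysis most rows are higher in the 3 cKO columns, with Vwf and Selp the other way round, and in the diaphysis WT replicate 1 holds the lowest value of 28 of the 39 genes.

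Among the 13 junction and surface genes, 3 rose in the cKO metaphysis (Emcn, Cdh5 and Mmrn2), 0 fell and 10 were not called. All 13 estimates were above 0, with a median of 0.35. Emcn encodes endomucin, a sialomucin on the luminal face of capillary and venous endothelium, on chr3:137004031-137095149 (mm9, plus strand). It measured 9.76, 10.2 and 11.7 RPKM in the WT libraries and 18.8, 21.9 and 20.6 RPKM in the cKO libraries. Every cKO library was well above every WT library, and the log2 fold change of Emcn was 0.95 (SE 0.11, limma adjusted p = 0.00958). Both of its annotated transcripts had higher means in cKO, the main transcript NM_001163522 at 9.21 in WT against 16.6 RPKM in cKO, and NM_016885 at 1.34 against 3.85 RPKM.

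Cdh5 encodes VE-cadherin, the adhesion protein of endothelial junctions, on chr8:106625525-106668402 (plus strand). Its WT libraries measured 17.2, 18.5 and 20.5 RPKM and its cKO libraries 29.4, 27.8 and 27.9 RPKM. The genotypes did not overlap, and the log2 fold change was 0.60 (SE 0.09, limma adjusted p = 0.0151). Mmrn2, a matrix glycoprotein bound to endothelial cells, lies on chr14:35188690-35217473 (plus strand). It measured 5.87, 6.78 and 5.41 RPKM in WT and 8.78, 7.82 and 8.60 RPKM in cKO, again without overlap, with a log2 fold change of 0.48 (SE 0.11, adjusted p = 0.0406).

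Pecam1, the platelet and endothelial adhesion molecule also known as CD31, was the most abundant of the 39 over the 12 libraries. It measured 30.1, 33.1 and 28.6 RPKM in WT metaphysis and 34.7, 32.9 and 30.1 RPKM in cKO metaphysis. The genotypes overlapped, and the log2 fold change was 0.09 (SE 0.10, limma adjusted p = 0.574). The level of Emcn divided by that of Pecam1 in the same library was 0.324, 0.307 and 0.409 in WT and 0.544, 0.665 and 0.684 in cKO. The same ratio for Plvap was 0.628, 0.541 and 0.629 in WT and 0.899, 1.12 and 1.25 in cKO. In the diaphysis the Emcn ratio was 0.216, 0.271 and 0.283 in WT and 0.283, 0.225 and 0.327 in cKO, overlapping. That of Plvap was 0.291, 0.598 and 0.579 in WT and 0.653, 0.631 and 0.624 in cKO, without overlap. Since Pecam1 is also a platelet gene, these ratios are not levels per endothelial cell.

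Cd34, a sialomucin of small vessels and of blood progenitors, measured 27.5, 31.9 and 25.1 RPKM in WT and 33.8, 36.8 and 36.6 RPKM in cKO metaphysis. All cKO libraries of Cd34 lay above the WT libraries, but the log2 fold change of 0.35 (SE 0.11) did not pass (limma adjusted p = 0.0770). The remaining junction and surface genes not called had estimates from 0.01 to 0.57. That of Ecscr, a small endothelial surface protein, was 0.57 (SE 0.16, adjusted p = 0.0568), and that of the tight junction protein Cldn5 was 0.49 (SE 0.15, adjusted p = 0.0736). At the low end were the junction protein Esam at 0.15, the adhesion molecule Icam2 at 0.05 and the adhesion receptor Eltd1 at 0.01, whose genotypes overlapped. Between these were the adhesion receptor Gpr116 (0.32), the guidance receptor Robo4 (0.43) and the lectin-like Clec14a (0.19).

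Of the 4 transcription factors, 2 rose in the cKO metaphysis, Sox18 and Sox7, and the median log2 fold change of the 4 was 0.69. Both belong to the SoxF group, which acts in vessel formation. Sox18, on chr2:181404541-181406345 (minus strand), measured 14.3, 10.6 and 14.4 RPKM in WT and 23.4, 24.2 and 22.9 RPKM in cKO. The cKO libraries were close to each other and all above WT, with a log2 fold change of 0.85 (SE 0.13, limma adjusted p = 0.0146). Sox7, on chr14:64562511-64569569 (plus strand), was low, at 1.65, 1.93 and 1.999 RPKM in WT and 2.63, 3.27 and 3.60 RPKM in cKO, without overlap (log2 fold change 0.73, SE 0.17, adjusted p = 0.0351).

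Sox17, the SoxF factor known for arterial endothelium, measured 2.61, 1.82 and 2.18 RPKM in WT metaphysis and 2.98, 4.01 and 3.51 RPKM in cKO metaphysis. Its cKO libraries were all above WT, and the log2 fold change of 0.65 (SE 0.18) missed the threshold (limma adjusted p = 0.0596). The ETS factor Erg, which maintains endothelial identity, had a mean of 6.11 ± 0.490 in WT against 6.68 ± 0.537 RPKM in cKO (SD, n = 3 each), overlapping, with a log2 fold change of 0.12 (SE 0.11, adjusted p = 0.474). The 3 SoxF genes thus had estimates of 0.65 to 0.85 and Erg one near 0. These differences between genes were not tested.

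**Figure D2:**
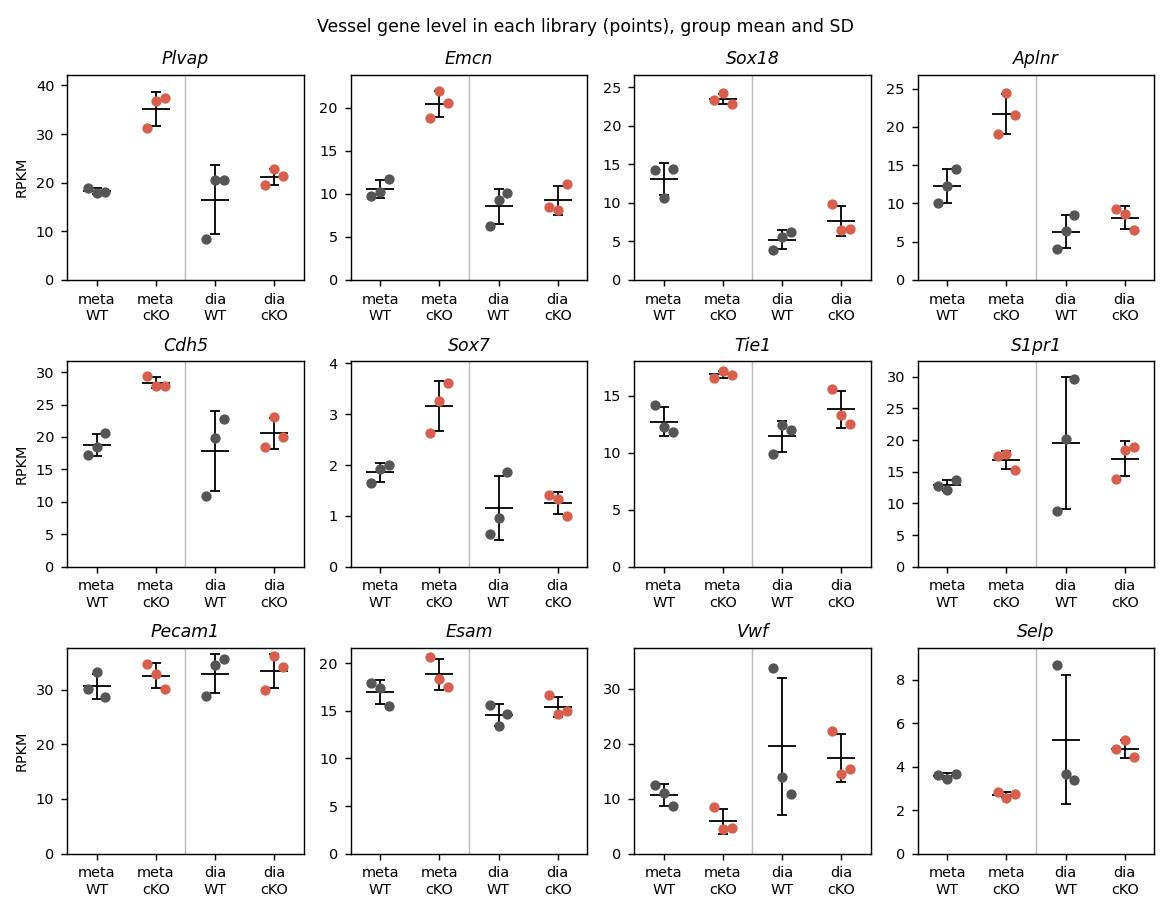
RPKM in each library (points) with the group mean and SD (bars, n = 3) for selected vessel genes, in metaphysis WT, metaphysis cKO, diaphysis WT and diaphysis cKO. Emcn and Plvap separate by genotype in the metaphysis and overlap in the diaphysis, while Pecam1 overlaps in both.

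Receptors and signalling genes held the most calls, with 5 of 12 higher in the cKO metaphysis (Aplnr, Arhgef15, Nos3, Tie1 and S1pr1), 0 lower and 7 not called. All 12 estimates were above 0, with a median of 0.44. Aplnr, the receptor of apelin, lies on chr2:84976517-84980079 (plus strand). Its level was 10.04, 12.2 and 14.5 RPKM in WT and 19.1, 24.4 and 21.5 RPKM in cKO, without overlap, and the log2 fold change was 0.83 (SE 0.15, limma adjusted p = 0.0213).

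Arhgef15, a guanine nucleotide exchange factor found in endothelium, lies on chr11:68756657-68770982 (minus strand). It measured 4.04, 4.12 and 3.29 RPKM in WT and 5.70, 6.02 and 5.83 RPKM in cKO metaphysis, a log2 fold change of 0.61 (SE 0.12, limma adjusted p = 0.0239). The cKO libraries of Arhgef15 were nearly equal and all above WT. Nos3, the endothelial nitric oxide synthase, on chr5:23870628-23890292 (plus strand), measured 2.26, 2.10 and 2.07 RPKM in WT and 2.77, 3.71 and 3.32 RPKM in cKO. Its genotypes did not overlap, but its log2 fold change of 0.58 (SE 0.15) sits on the threshold (adjusted p = 0.049998).

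Tie1, the orphan receptor that works with the angiopoietin receptor, lies on chr4:118143796-118162666 (minus strand). It measured 14.1, 12.2 and 11.8 RPKM in WT and 16.6, 17.1 and 16.8 RPKM in cKO, without overlap (log2 fold change 0.41, SE 0.10, limma adjusted p = 0.0390). S1pr1, a receptor of sphingosine 1-phosphate that stabilises endothelial junctions, lies on chr3:115413351-115417973 (minus strand). Its level was 12.7, 12.1 and 13.7 RPKM in WT and 17.6, 17.8 and 15.3 RPKM in cKO, the smallest change among the 11 genes called (log2 fold change 0.39, SE 0.10, adjusted p = 0.0483). The libraries of S1pr1 did not overlap between genotypes. S1pr1 is also expressed by lymphocytes.

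Egfl7, a secreted protein of endothelial cells, measured 20.6, 25.7 and 23.3 RPKM in WT and 28.4, 31.5 and 33.1 RPKM in cKO metaphysis. No library overlapped, and the log2 fold change of 0.42 (SE 0.11) missed the threshold (limma adjusted p = 0.0519). Its annotated transcripts differed from each other, with NM_198724 at a mean of 5.62 RPKM in WT and 11.4 RPKM in cKO, and NM_178444 at 8.51 RPKM and 7.22 RPKM. The sources used here do not say how reads shared by the transcripts were divided. The receptor Calcrl and its partner Ramp2 together bind adrenomedullin. Calcrl had a log2 fold change of 0.02 (SE 0.18, adjusted p = 0.943), and Ramp2 one of 0.46 (SE 0.15, adjusted p = 0.0828). The other 4 not called were Rasip1 (0.48), the adaptor She (0.47), the phosphatase Ptprb (0.31) and Myct1 (0.15).

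Plvap was the called gene of the 2 in permeability and lipid handling. It encodes the protein that forms the diaphragms of endothelial fenestrae and lies on chr8:74021653-74035668 (minus strand). Its level was 18.9, 17.9 and 18.0 RPKM in WT and 31.2, 36.8 and 37.4 RPKM in cKO metaphysis. The WT libraries were nearly equal and far below cKO, with a log2 fold change of 0.93 (SE 0.10, limma adjusted p = 0.00907). Gpihbp1, which carries lipoprotein lipase across capillary endothelium, had a mean of 10.1 ± 1.78 in WT against 10.1 ± 1.67 RPKM in cKO (SD, n = 3 each) and a log2 fold change of 0.01 (SE 0.17, adjusted p = 0.987). Plvap and Emcn were the genes called in each alternative fit of the metaphysis tried, other than the fit in which 12 libraries shared the spread.

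None of the 3 scavenger receptors was called in the metaphysis, where none of the 4 tested haemostasis and adhesion genes was called either. Stab1 had a mean of 7.82 ± 0.863 RPKM in WT and 11.02 ± 1.43 RPKM in cKO metaphysis, with every cKO library above WT (log2 fold change 0.49, SE 0.13, limma adjusted p = 0.0526). Stab2, known for sinusoids of liver, spleen and marrow, measured 2.23, 2.12 and 1.79 RPKM in WT and 2.14, 1.23 and 1.93 RPKM in cKO, overlapping, with a log2 fold change of -0.23 (SE 0.23, adjusted p = 0.537). Lyve1, a hyaluronan receptor of lymphatic and sinusoidal endothelium and of some macrophages, was low. It measured 1.40, 1.81 and 1.00 RPKM in WT and 1.28, 1.14 and 1.02 RPKM in cKO, overlapping, with a log2 fold change of -0.24 (SE 0.25, adjusted p = 0.553).

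Vwf and Selp lay on the other side of 0 from most vessel genes. Vwf, the von Willebrand factor that tethers platelets, measured 12.4, 11.1 and 8.59 RPKM in WT metaphysis and 8.49, 4.49 and 4.67 RPKM in cKO metaphysis. All WT libraries were higher, the closest pair by little, and the log2 fold change of -0.90 (SE 0.26) was not called (limma adjusted p = 0.0648). Without cKO replicate 1, the cKO library nearest to WT, it was -1.19 and passed (limma adjusted p = 0.0249). Vwf was not called with any other single library left out, and was called in 2 of 15 alternative fits. Selp, the P-selectin that captures leukocytes, measured 3.60, 3.45 and 3.68 RPKM in WT and 2.84, 2.58 and 2.73 RPKM in cKO, without overlap (log2 fold change -0.38, SE 0.11, adjusted p = 0.0680). Thbd (thrombomodulin) had a log2 fold change of -0.14 (SE 0.14, adjusted p = 0.533), and Procr, the receptor of protein C, one of 0.48 (SE 0.17, adjusted p = 0.111). Sele, the E-selectin of activated endothelium, was not tested, at 1.11, 0.919 and 0.849 RPKM in WT and 1.03, 0.452 and 0.782 RPKM in cKO.

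Since Vwf and Selp are also megakaryocyte genes, markers of megakaryocytes and platelets are given beside them. Of 14 such markers tested in the metaphysis, 0 rose and 2 fell, the platelet chemokine Ppbp at -0.69 (SE 0.12, limma adjusted p = 0.0171) and the platelet glycoprotein Gp5 at -0.68 (SE 0.14, adjusted p = 0.0283). Their median log2 fold change was -0.61 against -0.04 over all genes tested. In the same fit, 7.51% of all genes were called higher and 3.89% lower. The summed RPKM of the 14 was 766 to 954 in WT and 482 to 675 in cKO metaphysis. Their part in the values of Vwf and Selp was not tested.

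**Figure D3:**
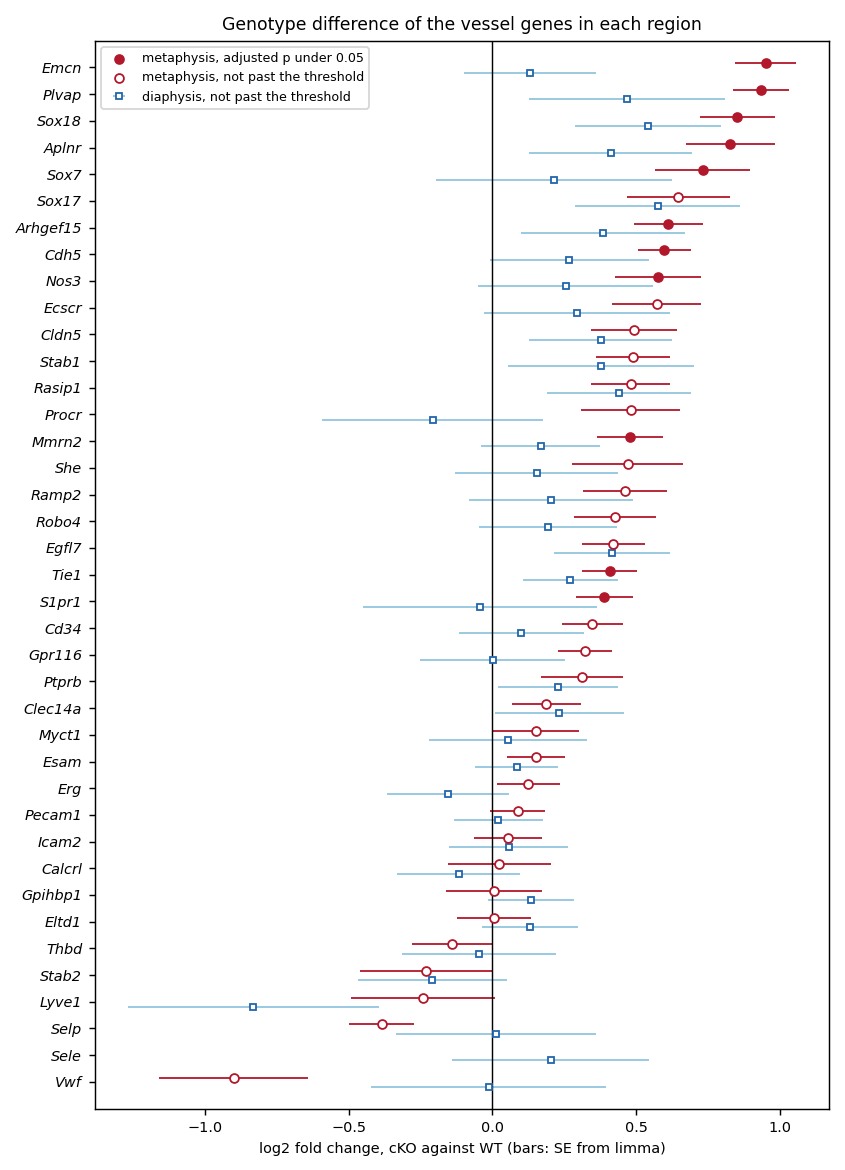
Log2 fold change of cKO against WT for each vessel gene in the metaphysis and in the diaphysis (points, with SE as bars), ordered by the metaphysis value. The 11 genes called in the metaphysis range from 0.39 to 0.95, none was called in the diaphysis, and Vwf (-0.90) and Selp (-0.38) are the lowest in the metaphysis.

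In the diaphysis, 0 of the 39 vessel genes were called, and 0 (0%) of the 12540 genes tested passed by limma. Even Dlx3, whose cKO mean was 14.5% of its WT mean, was not called in this fit. The 0 calls therefore do not show that the vessel genes were unchanged in the diaphysis. At an unadjusted p under 0.05, 86 of all genes and 0 of the vessel genes passed, and by limma with array quality weights 58 of all genes (0.247% higher and 0.215% lower) and 0 of the vessel genes were called. The estimate was above 0 for 31 and below 0 for 8, with a median of 0.17 over the vessel genes and 0.0022 over all genes. The 3 cKO libraries lay above the 3 WT libraries for Tie1, Sox18 and Sox17 (7.69%, against 2.24% of all genes) and below them for 0 (against 0.789%).

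The largest estimates belonged to Sox17, Sox18 and Plvap, none of which passed (limma adjusted p = 1.00 for each). Sox17 measured 0.885, 1.47 and 1.42 RPKM in WT and 2.14, 1.68 and 1.83 RPKM in cKO diaphysis, a log2 fold change of 0.57 (SE 0.29). Sox18 measured 3.84, 5.63 and 6.26 RPKM in WT and 9.89, 6.48 and 6.64 RPKM in cKO, 0.54 (SE 0.25) on the same scale. In both SoxF genes the genotypes were apart by a small gap. Plvap measured 8.38, 20.6 and 20.6 RPKM in WT and 19.5, 22.8 and 21.3 RPKM in cKO, so that its estimate of 0.47 (SE 0.34) came with WT replicate 1 far below the others. Without WT replicate 1 the log2 fold change was 0.36 for Sox17 (SE 0.25), 0.34 for Sox18 (SE 0.22) and 0.04 for Plvap (SE 0.16).

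The lowest estimates were those of Lyve1, Stab2 and Procr (limma adjusted p = 1.00 for each). Lyve1 measured 1.19, 2.87 and 2.66 RPKM in WT and 0.680, 1.54 and 1.38 RPKM in cKO diaphysis, a log2 fold change of -0.83 (SE 0.43) with WT replicate 1 inside the cKO range. Stab2 measured 3.02, 2.67 and 2.88 RPKM in WT and 1.72, 3.04 and 2.82 RPKM in cKO, -0.21 (SE 0.26). Procr measured 1.39, 4.19 and 2.25 RPKM in WT and 1.96, 2.35 and 1.82 RPKM in cKO, -0.21 (SE 0.39). Both overlapped between genotypes. Without WT replicate 1 the estimates were -1.21 for Lyve1 (SE 0.35), -0.17 for Stab2 (SE 0.28) and -0.57 for Procr (SE 0.29).

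The genes that rose in the metaphysis overlapped between genotypes in the diaphysis, other than Sox18 and Tie1. Emcn measured 6.22, 9.34 and 10.1 RPKM in WT and 8.48, 8.11 and 11.2 RPKM in cKO diaphysis (log2 fold change 0.13, SE 0.23). Cdh5 measured 10.9, 19.8 and 22.8 RPKM in WT and 18.5, 23.1 and 20.01 RPKM in cKO (0.27, SE 0.28). Aplnr measured 4.08, 6.35 and 8.43 RPKM in WT and 9.33, 8.61 and 6.49 RPKM in cKO (0.41, SE 0.28). In each of these genes WT replicate 1 held the lowest value, and without it the estimates were -0.08 for Emcn (SE 0.19), -0.05 for Cdh5 (SE 0.17) and 0.14 for Aplnr (SE 0.22), so that the first 2 turned sign. Tie1 measured 9.85, 12.42 and 11.98 RPKM in WT and 15.6, 13.3 and 12.48 RPKM in cKO (0.27, SE 0.17), apart by 12.42 against 12.48 RPKM at the closest pair. S1pr1 spread widely among WT libraries, at 8.83, 20.1 and 29.6 RPKM, with cKO at 13.9, 18.4 and 18.9 RPKM (-0.04, SE 0.41). Sox7, Arhgef15, Nos3 and Mmrn2 had estimates of 0.17 to 0.38. Without WT replicate 1, the estimates were 0.17 for Tie1 and 0.15 for Arhgef15, against -0.53 for S1pr1, -0.10 for Sox7, -0.00079 for Nos3 and -0.03 for Mmrn2.

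Of the abundant genes not called in either region, Pecam1 measured 28.8, 34.5 and 35.5 RPKM in WT and 29.9, 36.1 and 34.2 RPKM in cKO diaphysis (0.02, SE 0.15). Cd34 measured 14.7, 23.7 and 24.9 RPKM in WT and 22.4, 22.8 and 21.0 RPKM in cKO (0.10, SE 0.22). Egfl7 measured 14.8, 20.7 and 19.2 RPKM in WT and 29.9, 22.7 and 20.6 RPKM in cKO (0.42, SE 0.20). All 3 overlapped, Egfl7 only through its closest pair. Without WT replicate 1 they were at -0.07 for Pecam1, -0.14 for Cd34 and 0.27 for Egfl7. With all libraries, the vessel genes of the diaphysis given no library values here had estimates from -0.15 (Erg) to 0.44 (Rasip1).

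WT replicate 1 of the diaphysis held the lowest of the 6 values for 28 of the 39 genes, with a summed vessel RPKM of 278 against 352 to 373 in the other diaphysis libraries. It held the highest value for 3, namely Vwf, Selp and Myct1. Vwf measured 33.8, 13.9 and 10.9 RPKM in WT and 22.4, 14.5 and 15.3 RPKM in cKO diaphysis, and Selp 8.68, 3.67 and 3.40 RPKM in WT and 4.80, 5.25 and 4.43 RPKM in cKO. The summed RPKM of the megakaryocyte and platelet markers in the same library was 1831.5, against 502 to 1201 in the others. Its summed osteoblast markers were 5128 RPKM against 12034 to 29200.4 in the others, and globin transcripts took 32.6% of its RPKM against 15.1% to 26.5%. The part of these in its vessel values was not tested. Next to it in each of these came cKO replicate 1 of the diaphysis, at 1201 RPKM, 12034 RPKM and 26.5%. That cKO library held the highest value of 11 of the 39 genes, Sox18 among them, and the lowest of 6. Without cKO replicate 1, the estimate was above 0 for 35 vessel genes and below 0 for 4, with a median of 0.16.

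Without WT replicate 1 of the diaphysis, the estimate was above 0 for 20 of the 39 vessel genes and below 0 for 19. The median was 0.02, and 0 genes were called. At an unadjusted p under 0.05 by limma there were then 3 vessel genes, and 570 of all 12469 genes tested. The 3 were Lyve1 at -1.21 (SE 0.35), S1pr1 at -0.53 (SE 0.22) and Selp at 0.44 (SE 0.19). The excess of positive estimates in the diaphysis therefore rests on WT replicate 1.

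Whether the genotype difference itself differed between regions was tested as a contrast in 1 limma fit of all 12 libraries. Of the 12321 genes tested in both regions, 0 (0%) were called and 495 passed at an unadjusted p under 0.05, among them 1 of the 38 vessel genes tested. That gene was Emcn, whose log2 fold change was 0.82 greater in the metaphysis than in the diaphysis (SE 0.26, unadjusted p = 0.00912, adjusted p = 0.908). The contrast for Plvap was 0.47 and that for Vwf -0.88. By limma with array quality weights, 12 vessel genes were called with a greater and 2 with a lower log2 fold change in the metaphysis, as were 7.99% and 11.4% of all genes.

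Without diaphysis WT replicate 1, 3 of the vessel genes were called in this contrast. That library was singled out after its values were seen. In the diaphysis it held the lowest value of Emcn and Plvap and the highest of Selp. Leaving it out therefore moves these contrasts in the directions given here, and does not show separately that the regions differ. Leaving out any other single library called 0 genes. Emcn had a log2 fold change greater in the metaphysis by 1.03 (SE 0.21), and Plvap by 0.90 (SE 0.16). Selp had one that was lower in the metaphysis (-0.82, SE 0.18). The limma adjusted p was 0.0487 for each. Across the 12284 genes of that fit, 1.51% were called in the direction of Emcn and Plvap and 0.497% in that of Selp.

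Levels in the regions are set side by side without a test, since the tables were made separately and the headers give different run names for the regions. In WT, the means of 14 of the 39 vessel genes were higher in the metaphysis and those of 5 higher in the diaphysis by more than the larger SD of the regions, and 20 were within it. Sox18 measured 13.1 ± 2.14 RPKM in the metaphysis and 5.24 ± 1.25 RPKM in the diaphysis, and Aplnr 12.2 ± 2.22 RPKM and 6.29 ± 2.18 RPKM (SD, n = 3 each). Rasip1, an effector of small GTPases needed for vessel lumen formation, measured 6.94 ± 1.11 RPKM and 3.46 ± 0.877 RPKM. Higher in the diaphysis were Stab2, at 2.04 ± 0.228 RPKM in the metaphysis and 2.86 ± 0.175 RPKM in the diaphysis, Calcrl, at 4.69 ± 0.907 RPKM and 6.30 ± 0.501 RPKM, Erg, at 6.11 ± 0.490 RPKM and 7.18 ± 0.827 RPKM, and also Gpihbp1 and Sele. Pecam1, at 30.6 ± 2.30 RPKM and 32.9 ± 3.63 RPKM, and Vwf, at 10.7 ± 1.95 RPKM and 19.5 ± 12.4 RPKM, were within the larger SD. Without diaphysis WT replicate 1, 13 genes were higher in the metaphysis and 13 in the diaphysis, Pecam1 (35.02 ± 0.715 RPKM, n = 2) and Cdh5 among the latter. The share of all genes that pass this SD rule was not worked out. These counts are therefore not shown to be particular to the vessel genes. Region and sequencing run cannot be told apart here.

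The ligands, co-receptors and junction partners of the vessel genes were read from a list of 34 genes that holds none of the 39. Of 28 tested in the metaphysis, 13 rose in cKO (against 7.51% of all genes) and 0 fell (against 3.89%). Their median log2 fold change was 0.40. The largest were Ramp3, a co-receptor for Calcrl, at 1.31 (SE 0.16, limma adjusted p = 0.0105), Angpt2, an angiopoietin that modulates the receptor partner of Tie1, at 1.09 (SE 0.19, adjusted p = 0.0183), and Apln, the ligand of Aplnr, at 1.08 (SE 0.19, adjusted p = 0.0179). Apln measured 1.59 RPKM in WT and 3.47 RPKM in cKO on average. Some partners had estimates below 0, none of them called. The lowest was that of Angpt1, a further angiopoietin, at -0.56 (SE 0.16, limma adjusted p = 0.0605). Others named after their values were seen are Adm (adrenomedullin, a ligand of Calcrl) at 0.79, Spns2, the exporter of sphingosine 1-phosphate, at 0.97, and the receptors S1pr2 at 0.48 and S1pr3 at 0.77. The catenins Ctnnb1 (0.58), Ctnnd1 (0.72) and Jup (0.58), which bind Cdh5 inside the cell and are made by many cell types, rose as well. Apelin, its receptor Aplnr, the catenins and Cdh5 were higher, while Calcrl was level beside a rise of Ramp3 and Adm. These genes were set together after their values were seen. Besides Angpt1, the partners Sphk1, Lpl, Cav1, Selplg, Cd93, Rap1a, Rap1b and Hsp90ab1 had estimates below 0, from -0.28 to -0.05. In the diaphysis 0 of 27 were called, with a median of 0.18. Without metaphysis cKO replicate 3, the count in the metaphysis was 0 in place of 13, where 0.839% of all genes were called. Without WT replicate 1 it was 3 (1.5%) and without WT replicate 2 it was 4 (1.94%).

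Of 42 other vessel regulators, 14 rose in the cKO metaphysis (against 7.51% of all genes) and 0 fell (against 3.89%), with a median of 0.44. Here the largest were the Notch targets Hey2 at 1.41 (SE 0.22, limma adjusted p = 0.0158) and Heyl at 1.26 (SE 0.11, adjusted p = 0.00554) and the forkhead factor Foxc2 at 1.31 (SE 0.22, adjusted p = 0.0178). The receptors Kdr (VEGFR2) at 0.57 and Flt1 (VEGFR1) at 0.43, the TGF-beta co-receptor Eng at 0.61, the Notch ligand Dll4 at 0.77 and the growth factor Vegfa at 0.45 also rose and are named after their values were seen. Other estimates of this list lay below 0 in the metaphysis, none of them called. The lowest were Tal1 at -0.88 (SE 0.23, limma adjusted p = 0.0526), Cxcr4 at -0.60 (SE 0.16, adjusted p = 0.0526) and Lmo2 at -0.57 (SE 0.17, adjusted p = 0.0771). In the diaphysis 0 of 42 were called, with a median of 0.12. Leaving out metaphysis cKO replicate 3 gave 1 call, where 0.839% of all genes were called. Leaving out WT replicate 1 (1.5%) or WT replicate 2 (1.94%) gave 2.

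**Figure D4:**
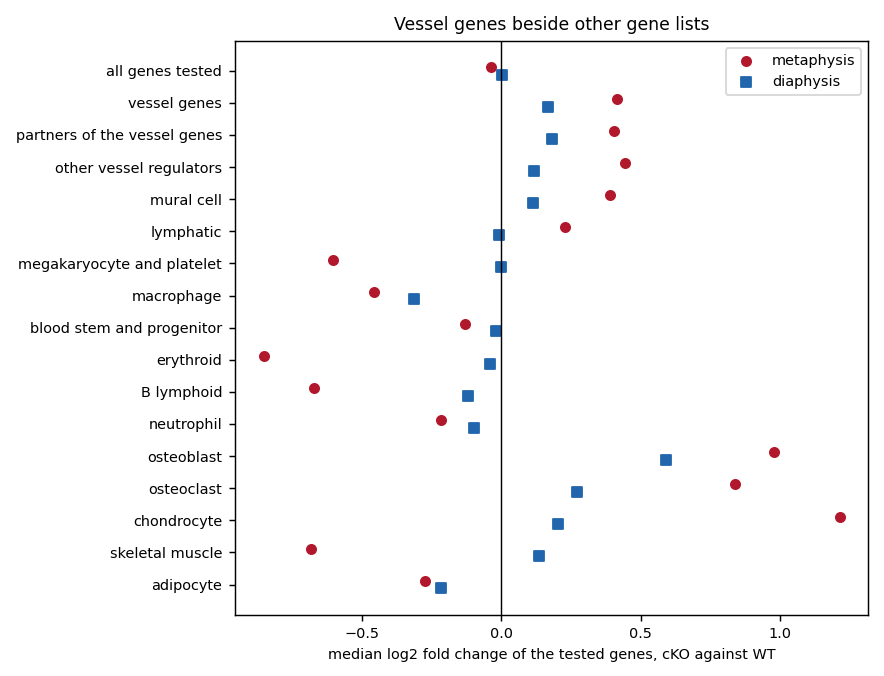
Median log2 fold change of cKO against WT over the tested genes of each list, in the metaphysis and in the diaphysis. In the metaphysis the vessel genes (0.41), their partners (0.40) and the other vessel regulators (0.44) lie above all genes tested (-0.04), with the chondrocyte list highest (1.21) and the erythroid list lowest (-0.85).

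Markers of other cells in the tissue moved with genotype in the metaphysis as well. Of all genes tested there, 7.51% were called higher and 3.89% lower. Of 11 mural cell markers tested, 4 rose and 0 fell, namely the proteoglycan Cspg4 at 1.33, the receptor Pdgfrb at 0.80, the channel subunit Abcc9 at 0.57 and the adhesion protein Mcam at 0.49, which endothelium also makes. The mural median was 0.39, while the summed RPKM of the list was 202 to 303 in WT and 184 to 294 in cKO. The largest part of that sum was Des, a filament protein that is also in the skeletal muscle list, at a mean of 138.8 RPKM in WT and 87.8 RPKM in cKO. Of the 4 lymphatic markers tested, Foxc2 rose and Pdpn, which bone cells also express, fell by 1.08 on the log2 scale (SE 0.19, limma adjusted p = 0.0183).

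Bone and cartilage lists rose alongside the vessel genes. Higher were 8 of 14 osteoblast, 7 of 9 osteoclast and 7 of 12 chondrocyte markers, against 7.51% of all genes, and 0 were lower. Summed osteoblast markers were 15319 to 19749 RPKM in WT and 23878 to 25594 RPKM in cKO metaphysis, and summed chondrocyte markers 857 to 1151 RPKM and 1524 to 2425 RPKM. Blood lists went the other way, with 6 of 12 erythroid and 8 of 13 B lymphoid markers lower (against 3.89% of all genes) and 0 higher. Globin transcripts took 19.0% to 22.1% of the RPKM in WT and 13.5% to 17.2% in cKO metaphysis. The part of this shift in tissue makeup in the vessel values was not tested. With each library scaled to its RPKM without globins, 9 of the 38 vessel genes were called higher (6.93% of all genes) and 0 lower, and with values centred on the median gene 11 (8.29%) and 0.

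Of the remaining metaphysis lists, blood stem and progenitor markers had 1 higher (Hoxa9) and 1 lower (Myb) of 9 tested, macrophage markers 2 higher (Csf1r and Cd68) and 2 lower (Vcam1 and Timd4) of 11, neutrophil markers 1 higher of 12, skeletal muscle markers 1 lower (Myh1) of 12, and adipocyte markers 0 of 8. Beside these counts, 7.51% of all genes were called higher and 3.89% lower. The blood stem and progenitor list bears on Cd34 and the macrophage list on Stab1 and Lyve1, which those cells can also express. The neutrophil call was Mmp9, which is also among the 7 osteoclast markers that rose, and the other 11 neutrophil estimates were below 0. No marker of any of these lists was called in the diaphysis.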

How the data were processed

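Femur diaphysis and metaphysis were sequenced as messenger RNA from TruSeq libraries, a kit that marks no strand, per the labels' protocols. The authors deposited 1 table of RPKM values per region, per RefSeq transcript, per the file headers. The genome build mm9 and the tools TopHat 1.3.2 with Bowtie 0.12.7.0, Partek 6.6 and CASAVA 1.8.2 are named, without their roles, per the submitters' processing notes. How reads shared by transcripts were treated is not given in the sources used here. RPKM corrects for length and depth but not for composition.

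Transcripts were summed per symbol (45 rows for the 39 vessel genes, 4 of which have more than 1 transcript), and genes reaching 1 RPKM in 3 of a region's 6 libraries were kept. Values were tested as log2(RPKM + 0.1) by limma 3.58.1 under R 4.3.3 (trend on, 1 fit per region, 2-sided). P-values were Benjamini-Hochberg adjusted over all genes and called at 0.05. Regions were compared by a contrast over 12 libraries. Every adjusted p given is limma's, from these fits or, where a left-out library or another setting is named, from the fit with that change. The fitting script was tested on simulated data. Depth came from single-exon genes, where 77.3% to 86.7% of low values lay within 0.1 of whole reads (20% by chance). Positions are of mm9 (NCBIM37). Promoters are RefSeq's, and Eltd1 and Gpr116 were matched by their newer symbols. Tables were prepared in Python 3.11.15 with pandas 2.3.3 and numpy 2.4.6, and figures drawn with matplotlib 3.10.9.

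Library values are given for genes called in a region, the 5 most abundant, and the 3 lowest and 3 highest fold changes per region. Genes of other lists are named when called and among the 3 largest. Others of these lists were named after their values were seen. The vessel genes, lists and rules were chosen with earlier results of these data known. Alternatives changed the pseudocount, the filter, the scaling, the trend, library weights, the value per symbol, the libraries left in and the shared spread.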

Additional observations from a re-analysis of the deposited data

How the results depend on the processing

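The count of vessel genes higher in cKO metaphysis was 11 with a pseudocount of 1 RPKM (7.82% of all genes higher), with a minimum of 5 RPKM (9.66%) and after centring on the median gene (8.29%). It was 9 after scaling without globins (6.93%), without the trend (7.11%) and with the most abundant transcript (6.23%), 4 with no filter on low values (2.93%), 19 with array quality weights (11.7%; an array weights fit stopped before convergence), 0 with 12 libraries sharing the spread, and 2 to 10 with 1 library left out. The cause was not tested. The 11 genes called kept a log2 fold change above 0 in every alternative run, while 5 of the 27 not called changed sign in some. The 11 were picked by their estimates in these same libraries, so their kept sign is no separate support. The count called lower was 0 (3.89% of all genes lower), but 1 (Selp) without the trend (2.83%). It was 2 (Vwf and Selp) with array quality weights, where 1328 of all 12641 genes were lower. With 1 library left out it was 0 to 1 (0.152% to 5.12%). Over all genes the metaphysis count was 1441, but 728 with no filter, 2813 with array quality weights, 7 with the shared spread and 105 to 1418 with 1 library left out.

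Array quality weights gave 58 genes in place of 0 in the diaphysis, where leaving out libraries gave 0 to 0. In the difference between regions they gave 2394 genes in place of 0, with 12 vessel genes higher and 2 lower. No filter gave 2 genes, and leaving out libraries gave 0 to 247, with 0 to 2 vessel genes higher and 0 to 1 lower. The count of partners called, 13, was 0 with the shared spread (0.0568% of all genes called) and 0 to 13 with libraries left out (0.839% to 11.3%). The count of other regulators called, 14 of 42, was 8 with no filter (3.88% of all genes called) and 26 with array quality weights (22.3%). It was 0 with the shared spread and 1 to 12 with libraries left out. WT levels without diaphysis WT replicate 1, a setting chosen after seeing the data, put 13 vessel genes in place of 5 higher in the diaphysis. Dlx3 in the metaphysis stayed at -1.75 with the shared spread but was not called (limma adjusted p = 0.210), and in the diaphysis it was called with array quality weights (-2.52, adjusted p = 0.00808).

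No paired analysis was possible because the labels give the groups no shared replicate numbers. Depth limits the low genes most, such as Sele, Lyve1 and Sox7.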
